A study of Rattus norvegicus with 2 samples.

Results

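The genes described here encode the secreted Wnt ligands, their Frizzled and LRP receptors, the R-spondins with their LGR receptors, the secreted Wnt inhibitors, and a few intracellular mediators and feedback genes of the pathway. They were chosen by a rule on gene symbols, set with earlier results of these data known: 53 of the 17327 genes in the authors' deposited table matched it. The study sequenced RNA of rat myometrial progenitor cells, cultured precursors of uterine smooth muscle, taken from myometrium and grown to passages 1 to 3. A DES-exposed and a VEH-exposed group were compared. For each group the cells of 5 animals were pooled into 1 library (n = 1), and the sources used here give no strain, age, dose or time of exposure. DES is the usual abbreviation of diethylstilbestrol, a synthetic estrogen, and VEH of the vehicle it is given in.

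The deposited table holds a mean and a fold change per gene, and both libraries' reads were recovered from these. Whether DES or VEH is on top of that fold change is stated nowhere in it. So the library on top is named the numerator library and the one beneath it the denominator library. Which of them is DES is unknown, and higher or lower here says nothing of what DES did. Over the listed genes there were 106599579 reads in the numerator library, against 104793348 in the denominator library. Ratios are between normalised reads, that is, reads divided by the size factor of their library. With 1 library per group no difference has a replicate check and no test was run. Intervals are 95% and, like the floor of 3 reads used where a library had 0, cover counting error only. Higher or lower, as a call, means a ratio past 2-fold at a mean of 20 or more normalised reads, with an interval that excluded 1.

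Wnt proteins are lipid-modified signals that bind a Frizzled receptor together with the co-receptor LRP5 or LRP6, which protects beta-catenin from breakdown and lets it act on target genes with the TCF and LEF transcription factors. Some Wnts, with WNT5A as the best known, act mostly without beta-catenin, through ROR receptors and planar polarity proteins. R-spondins bind LGR receptors and keep Frizzled at the cell surface, while SFRP, DKK and WIF proteins hold the signal back outside the cell. In the mouse, Wnt genes are needed to form and pattern the ducts from which the uterus develops.

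Of the 53 genes, 12 were listed at 0, 10 had a mean under 20 and 31 passed this minimum. Fzd7, Wnt2, Lgr6, Rspo4 and Tcf7 match the rule too, but had no row under these symbols, so family sums and shares leave them out. Among the 31, 9 (29.0%) were higher in the numerator library by the 2-fold rule, and 9 (29.0%) were lower. Over all 11212 genes that passed the same minimum, 13.9% were higher and 12.8% lower. Together 58.1% of the Wnt genes and 26.7% of all genes lay past 2-fold. The median log2 ratio was -0.29 for the Wnt genes (interval from ranked values -0.92 to 0.99) and 0.01 for all genes. The median size of the log2 ratio, whatever its sign, was 1.24 for the Wnt genes and 0.52 for all genes. The Wnt genes thus spread widely to both sides and the interval of their median included 0. Both directions occurred within the SFRP, Frizzled, Wnt and Wisp families too, each of which had members past 2-fold on either side.

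**Figure D1:**
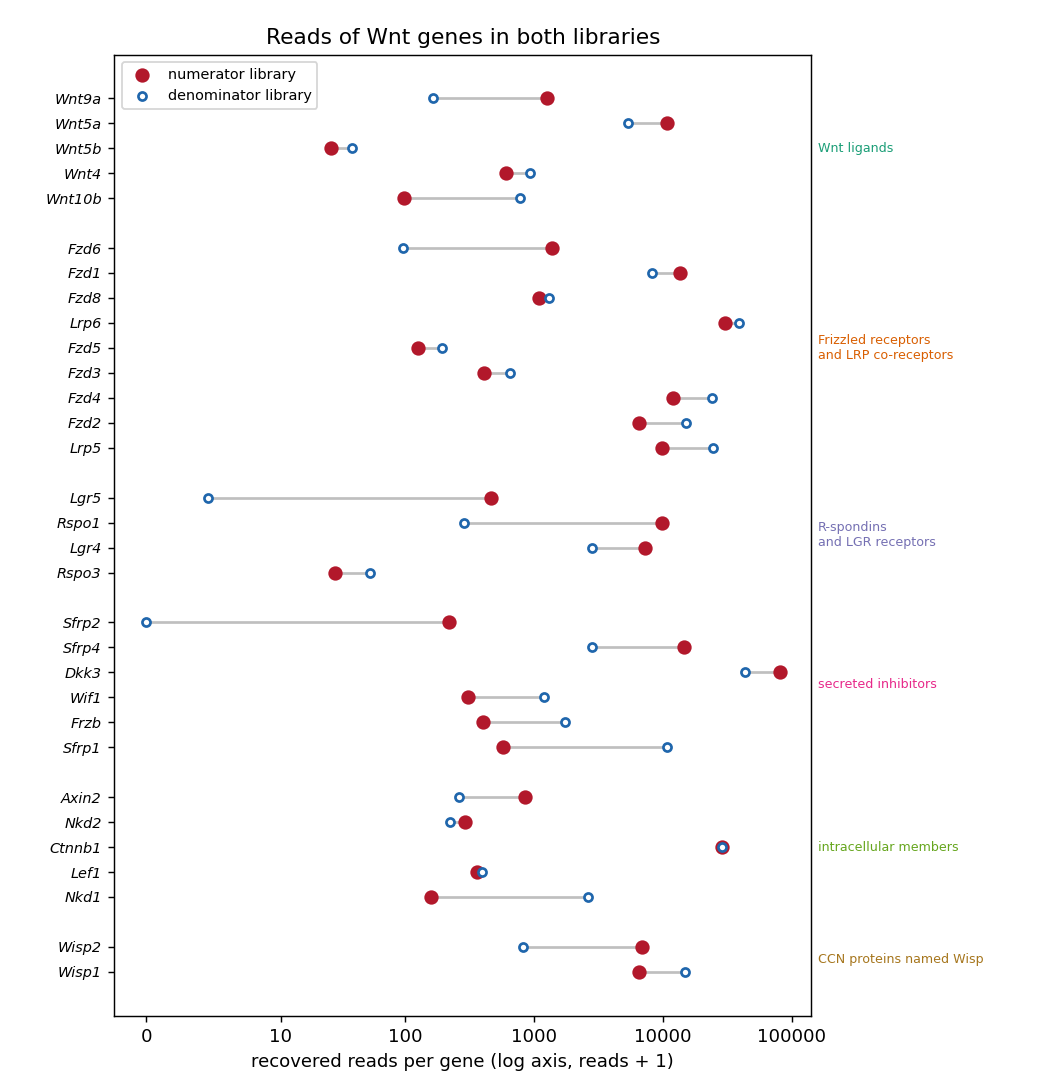
Recovered reads per gene (log axis of reads plus 1) for the 31 Wnt genes with a mean of at least 20, grouped by role; filled red points are the numerator library, open blue points the denominator library. The longest lines belong to Lgr5 (467 and 2 reads) and Sfrp2 (222 and 0 reads), while both points of Ctnnb1 fall together.

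**Figure D2:**
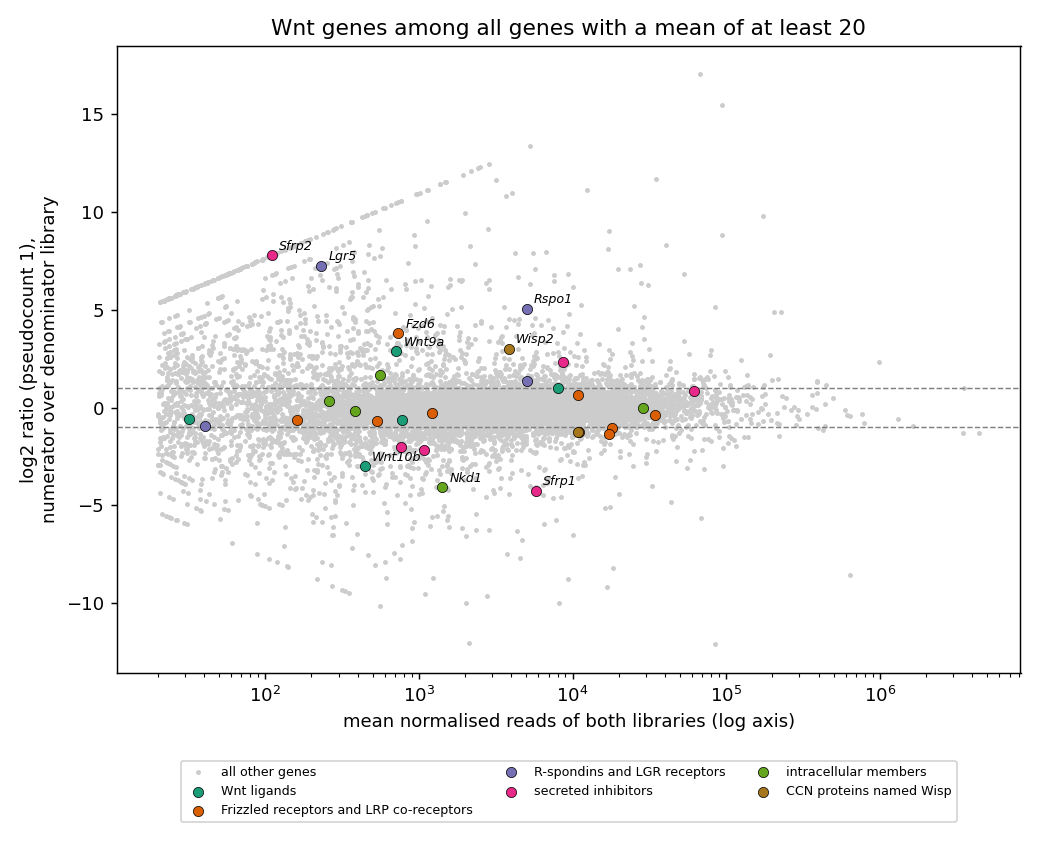
Log2 ratio (pseudocount of 1) of the numerator over the denominator library against the mean of normalised reads (log axis), with all genes with a mean of at least 20 in grey, the Wnt genes in colour by role and dashed lines at 2-fold. Wnt genes lie on both sides of 0, from Sfrp1 at -4.24 to Sfrp2 at 7.79.

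The Wnt ligands were few. Of 18 ligand genes, Wnt1, Wnt3, Wnt3a, Wnt7a, Wnt7b, Wnt8a, Wnt8b and Wnt9b were listed at 0, and 5 had a mean of at least 20. Wnt5a had 10776 reads in the numerator library, against 5345 in the denominator library, 1.98-fold higher (interval 1.92 to 2.05). It stayed just within the 2-fold limit, and its interval reached past it. Wnt9a, known from joint formation in the mouse, had 1272 and 166 reads and was 7.53-fold higher (interval 6.40 to 8.90). Wnt10b, a ligand that holds back fat cell formation in the mouse, had 99 and 785 reads and lay 8.07-fold lower (interval 6.54 to 10.1). Of the 5 ligands that passed the minimum, these were past 2-fold, and they lay in opposite directions.

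Wnt4, which the mouse needs to form the Mullerian duct, had 610 reads in the numerator library, against 940 in the denominator library, which is 1.57-fold lower (interval 1.42 to 1.74). Wnt5b, a close relative of Wnt5a, had 26 and 38 reads, and its interval included 1 (0.880-fold to 2.55-fold lower). The remaining ligands were hardly read and under the minimum: Wnt11 had 17 and 6 reads (2.78-fold higher, interval 1.05 to 8.62), Wnt2b 12 and 11, Wnt16 4 and 4, Wnt6 7 and 0, and Wnt10a 0 and 1. All listed Wnt ligand genes together had 12823 reads in the numerator library, against 7296 in the denominator library, a ratio of 1.73. Wnt5a held 84.0% of these reads in the numerator library (interval 83.4 to 84.7) and 73.3% in the denominator library (72.2 to 74.3). Wnt10b held 0.772% and 10.8%, and Wnt9a 9.92% and 2.28%. Shares follow transcript length as well as level, so a share is compared here between libraries and not between genes.

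Among the receptors most genes lay below 0. Of 9 Frizzled and LRP genes with a mean of at least 20, 7 had a ratio below 0 and 2 above it. Over all 11212 genes that passed this minimum, 5561 lay below 0. By the 2-fold rule 3 of the 9 were lower and 1 higher, beside 12.8% and 13.9% of all genes. Lrp5, a co-receptor, had 9928 reads in the numerator library, against 24532 in the denominator library, which is 2.52-fold lower (interval 2.46 to 2.58). Its partner Lrp6 had 30257 and 38938 reads, 1.31-fold lower and within the limit. Both co-receptor genes were thus well read in both libraries, and only Lrp5 passed 2-fold.

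Fzd2 had 6582 reads in the numerator library, against 15225 in the denominator library, which is 2.36-fold lower (interval 2.29 to 2.42). Fzd4, which also serves as the receptor of the non-Wnt ligand norrin, had 12013 and 24109 reads, 2.04-fold lower (interval 1.999 to 2.09). This is the called ratio nearest the limit. By the shrunken fold change of the authors' deposited table, Fzd4 (log2 -0.93) was within 2-fold. Fzd6, known for hair and tissue polarity in the mouse, stood apart with 1381 and 96 reads, 14.1-fold higher (interval 11.5 to 17.6). Fzd1, a close relative of Fzd2, had 13561 and 8341 reads, 1.60-fold higher and within the limit. The close relatives Fzd1 and Fzd2 therefore lay on opposite sides of 0.

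The other Frizzled genes that passed the minimum stayed within 2-fold. Fzd3 had 411 reads in the numerator library, against 652 in the denominator library, Fzd5 126 and 195, and Fzd8 1100 and 1320, with ratios 1.62-fold, 1.58-fold and 1.22-fold lower. Under the minimum, Fzd9 had 11 and 22 reads, 2.04-fold lower with an interval from 0.946 to 4.65 that included 1, and Fzd10 had 1 and 0. Summed over the 7 Frizzled genes that passed it, reads numbered 35174 in the numerator library, against 49938 in the denominator library, a ratio of 0.692. Fzd1 held 38.6% and 16.7% of them, Fzd4 34.2% and 48.3%, Fzd2 18.7% and 30.5%, and Fzd6 3.93% and 0.192%. Among these 7 genes, Fzd1 had the most reads in the numerator library and Fzd4 in the denominator library, without correction for transcript length. Fzd7 had no row, so its place is unknown.

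Of 4 R-spondin and LGR genes that passed the minimum, 3 were higher and 0 lower. Over all genes that passed it, 13.9% were higher and 12.8% lower, so 0 lower of 4 genes does not set this group apart. Rspo1, an R-spondin needed for ovary development, had 9895 reads in the numerator library, against 289 in the denominator library, 33.6-fold higher (interval 29.9 to 37.9). Lgr5, an R-spondin receptor best known as a marker of intestinal stem cells, had 467 and 2 reads and lay 229-fold higher (interval 63.1 to 1899). Its interval is wide because the denominator library had only 2 reads, near the limit of detection. Lgr4, the more widely expressed receptor, had 7330 and 2834 reads, 2.54-fold higher (interval 2.43 to 2.65). A ligand and both receptors of this group that were read thus lay past 2-fold in the same direction.

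Rspo3 went the other way without passing the limit, with 28 reads in the numerator library, against 53 in the denominator library, which is 1.93-fold lower (interval 1.20 to 3.16). Rspo2 had 15 and 0 reads, under the minimum. R-spondin reads summed to 9938 in the numerator library, against 342 in the denominator library, of which Rspo1 held 99.6% and 84.5%. Rnf43, a membrane ligase that removes Frizzled receptors and that R-spondins counteract, had 22 reads in the numerator library, against 44 in the denominator library, which is 2.04-fold lower (interval 1.19 to 3.57).

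**Figure D3:**
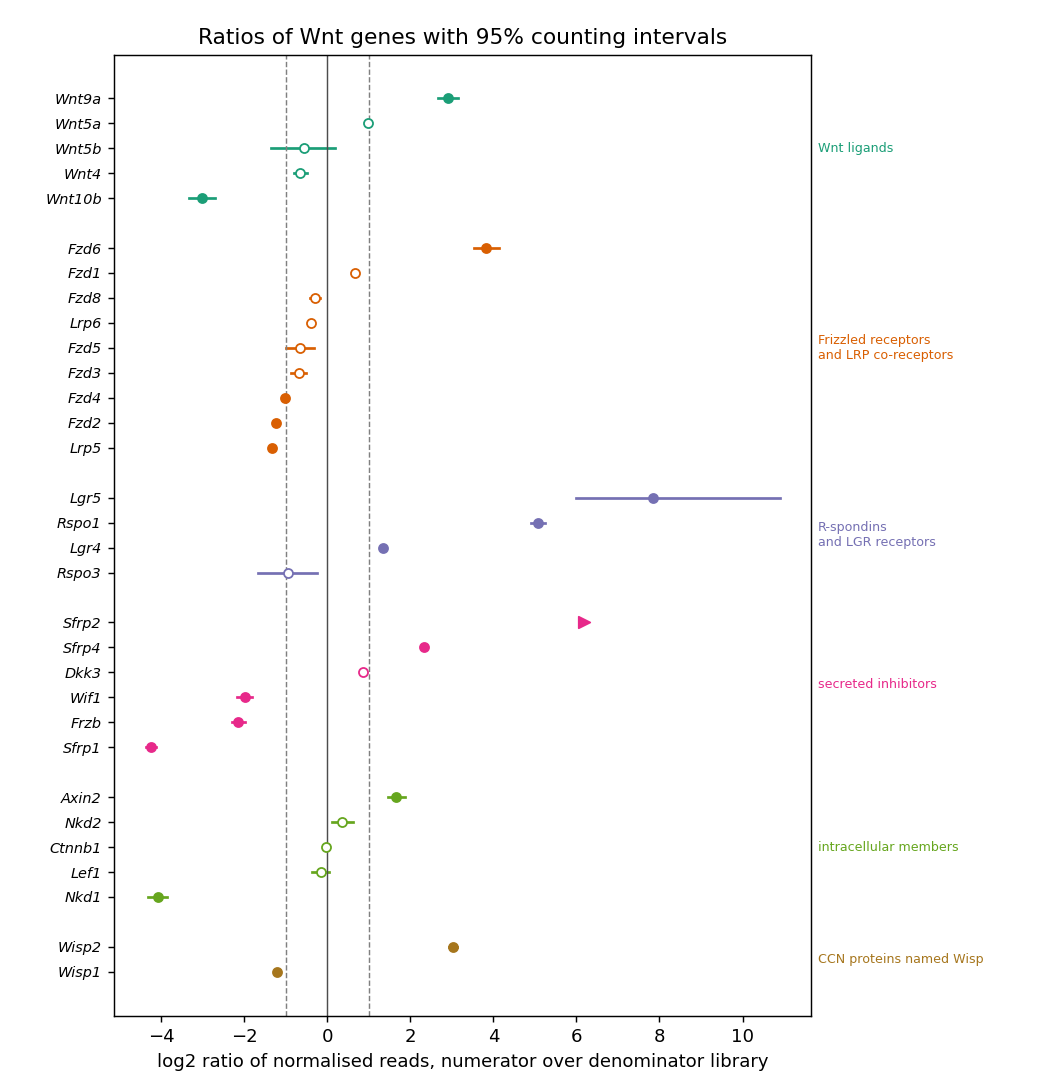
Log2 ratio of normalised reads, without a pseudocount, of the numerator over the denominator library for the 31 Wnt genes by role, with 95% counting intervals; filled points pass the 2-fold rule, open points do not, dashed lines mark 2-fold and the triangle marks the lower bound for Sfrp2. Lgr5, Rspo1 and Sfrp2 lie farthest to the right, Sfrp1 and Nkd1 farthest to the left.

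The secreted inhibitors split. Of 6 with a mean of at least 20, 2 were higher, 3 lower and 1 within the limit. SFRP proteins carry a Frizzled-like domain and bind Wnts. Sfrp1 had 583 reads in the numerator library, against 10842 in the denominator library, which is 18.9-fold lower (interval 17.4 to 20.6). Frzb, also known as Sfrp3, had 402 and 1741 reads, 4.41-fold lower (interval 3.95 to 4.93). Sfrp4 had 14549 and 2833 reads, 5.04-fold higher (interval 4.84 to 5.25). Sfrp2 had 222 and 0 reads, which makes it at least 72.7-fold higher against the floor of 3 reads per library.

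Sfrp1 and Sfrp4 exchanged places as the SFRP gene with the most reads, while the sum over the 4 genes hardly differed. Together they had 15756 reads in the numerator library, against 15416 in the denominator library, a ratio of normalised reads of 1.00. Sfrp4 held 92.3% of these reads in the numerator library (interval 91.9 to 92.8) and 18.4% in the denominator library (17.8 to 19.0). Sfrp1 held 3.70% in the numerator library (3.41 to 4.01) and 70.3% in the denominator library (69.6 to 71.0). Frzb held 2.55% and 11.3%, and Sfrp2 1.41% and 0%. Reads are not corrected for transcript length, so the equal sums do not show equal numbers of molecules.

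**Figure D4:**
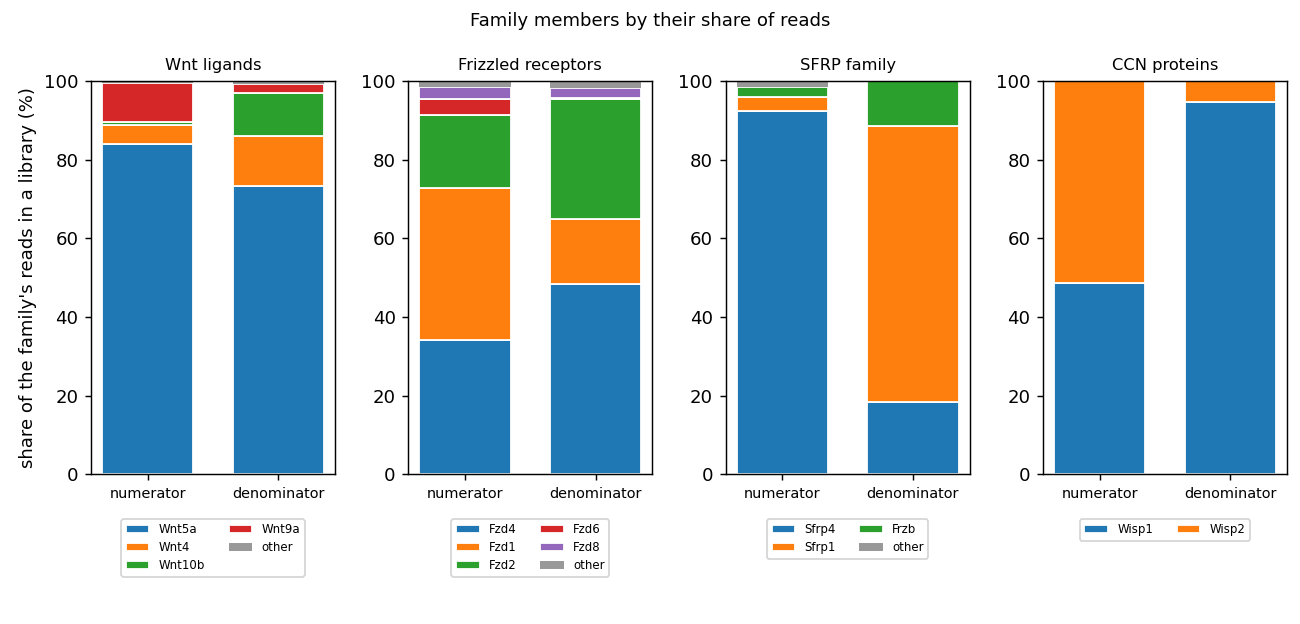
Share (%) of a family's reads held by each member, numerator library left and denominator library right, for the Wnt ligands, Frizzled receptors, SFRP family and CCN proteins; members under 2% in both libraries are pooled as other. Sfrp4 fills 92.3% of the SFRP column in the numerator library and Sfrp1 fills 70.3% in the denominator library.

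Wif1, an inhibitor that binds Wnts through its own domain, had 308 reads in the numerator library, against 1205 in the denominator library, which is 3.98-fold lower (interval 3.51 to 4.53). Dkk3, a divergent member of the Dickkopf family, had 80373 and 43307 reads, 1.82-fold higher and within the limit. Dkk1 and Dkk4, which block LRP co-receptors, and Sfrp5 were listed at 0. Dkk2 had 14 and 0 reads and Dkkl1 7 and 4, under the minimum.

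The promoter of Sfrp2 is shown because Sfrp2 is the Wnt gene with a mean of at least 20 that was read in 1 library only. It is the RefSeq window from 250 bases before to 50 bases after the gene's start, GRCr8, chr2:171387286-171387585, plus strand.
Sfrp2: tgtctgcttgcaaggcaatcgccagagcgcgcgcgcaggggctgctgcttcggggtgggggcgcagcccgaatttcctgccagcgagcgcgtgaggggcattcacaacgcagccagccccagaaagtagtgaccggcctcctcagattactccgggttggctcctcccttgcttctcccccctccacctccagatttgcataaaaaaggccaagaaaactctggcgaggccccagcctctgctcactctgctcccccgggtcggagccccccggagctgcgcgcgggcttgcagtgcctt
This window was searched on both strands for the core letters bound by TCF and LEF factors, ATCAAAG and TTCAAAG, and it held neither. Of 33469 such windows in the rat annotation 8.73% held at least 1 of them, as did 5 of the 36 Wnt genes with a window.

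The intracellular genes included the feedback regulators with the clearest differences. Ctnnb1, encoding beta-catenin, had 28789 reads in the numerator library, against 28933 in the denominator library, a 1.02-fold difference. Lef1, a transcription factor that works with beta-catenin, had 365 and 401 reads, and its interval included 1 (0.968-fold to 1.29-fold lower). Axin2, a scaffold of the beta-catenin destruction complex and a widely used target of the pathway, had 854 and 266 reads, 3.15-fold higher (interval 2.74 to 3.63). Nkd1, a Dishevelled-binding inhibitor that is itself a Wnt target, had 160 and 2661 reads, 16.9-fold lower (interval 14.4 to 19.99). Its relative Nkd2 had 293 and 224 reads, 1.28-fold higher and within the limit. Axin2 and Nkd1, both read as feedback targets of the same pathway, lay on opposite sides.

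The promoters of Axin2 and Nkd1 are shown because they are the Wnt genes past 2-fold, among 9 such genes with a window, whose windows held the TCF and LEF letters, set in capitals as read on the gene's strand. This pair was chosen after the values were seen. The Axin2 window is at chr10:94398535-94398834, plus strand, and the Nkd1 window at chr19:34722797-34723096, minus strand, both from RefSeq, GRCr8.
Axin2: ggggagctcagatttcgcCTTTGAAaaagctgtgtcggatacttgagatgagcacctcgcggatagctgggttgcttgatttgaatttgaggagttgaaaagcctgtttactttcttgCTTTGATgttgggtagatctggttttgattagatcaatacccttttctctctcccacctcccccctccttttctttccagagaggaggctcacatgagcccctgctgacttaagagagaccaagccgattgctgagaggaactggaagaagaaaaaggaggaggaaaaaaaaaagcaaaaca
Nkd1: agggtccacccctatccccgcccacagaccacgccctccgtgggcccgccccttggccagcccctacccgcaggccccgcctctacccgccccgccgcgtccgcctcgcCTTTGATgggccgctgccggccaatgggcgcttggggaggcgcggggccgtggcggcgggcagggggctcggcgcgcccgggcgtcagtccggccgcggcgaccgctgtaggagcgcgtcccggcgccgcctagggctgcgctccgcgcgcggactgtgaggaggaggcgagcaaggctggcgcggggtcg
The Axin2 window held 2 matches and the Nkd1 window 1, so genes with matches lay past 2-fold in both directions. The Nkd1 window held 44 CG pairs and the Axin2 window 5, against a median of 7 over all windows and 22.5 over those of the Wnt genes. A match describes letters and is no evidence of binding.

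The CCN proteins named Wisp are secreted matrix-associated proteins, named for Wnt-1-induced expression in mouse cells. Wisp1 had 6568 reads in the numerator library, against 15015 in the denominator library, which is 2.33-fold lower (interval 2.26 to 2.40). Wisp2, which restrains the growth of vascular smooth muscle cells in rats, had 6917 and 835 reads, 8.14-fold higher (interval 7.57 to 8.75). Wisp3 was listed at 0. Of the reads on Wisp1 and Wisp2, Wisp2 held 51.3% in the numerator library, against 5.27% in the denominator library.

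Genes of the pathway outside the symbol rule were read beside them. Of 74 such genes 63 had a row, and 57 had a mean of at least 20, of which 7 (12.3%) were higher and 9 (15.8%) lower, with a median log2 ratio of -0.02. These shares are near the 13.9% and 12.8% of all genes. Nuclear components had 0 higher and 4 lower of 16: Tle4 (3.98-fold lower), Tle2 (2.70-fold) and Ctbp2 (2.20-fold) encode co-repressors, and Tcf7l2 (2.10-fold) a TCF factor. Cytoplasmic components had 2 higher and 1 lower of 20, with Dact2, a Dishevelled-binding protein, 22.3-fold higher on 68 and 3 reads, Dvl1 (a Dishevelled) 2.18-fold higher and Apc2 2.10-fold lower. Of the complex that marks beta-catenin for breakdown, the kinase gene Gsk3b (1.22-fold higher) and the scaffold genes Axin1 (1.27-fold lower) and Apc (1.54-fold higher) stayed within the limit.

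Other Wnt receptors and planar polarity genes had 3 higher and 2 lower of 12. Ptk7, a pseudokinase co-receptor, had 906 reads in the numerator library, against 31181 in the denominator library, which is 35.0-fold lower (interval 32.8 to 37.5). Prickle1, a planar polarity protein, had 35999 and 8213 reads, 4.30-fold higher. Celsr3, a polarity cadherin, had 68 and 0 reads (at least 22.3-fold higher), Musk, a muscle receptor kinase, was higher on 53 and 2 reads (interval 6.86 to 220.5), and Daam1, an actin regulator, was 2.97-fold lower. The WNT5A receptor gene Ror2 had 13695 and 7571 reads (1.78-fold higher) and Ror1 1381 and 2400 (1.77-fold lower), both within the limit. Among secretion and surface genes 2 of 9 were higher and 2 lower. Cthrc1, a secreted protein that binds Wnt5a with its receptors, had 346 and 0 reads, hence at least 113-fold higher, and Igfbp4 was 2.17-fold higher. The pseudoreceptor gene Bambi was 3.91-fold lower, as was Rnf43 by the value above. Wls (1.42-fold lower) and Porcn (1.56-fold lower), both needed to make and release Wnts, stayed within the limit.

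**Figure D5:**
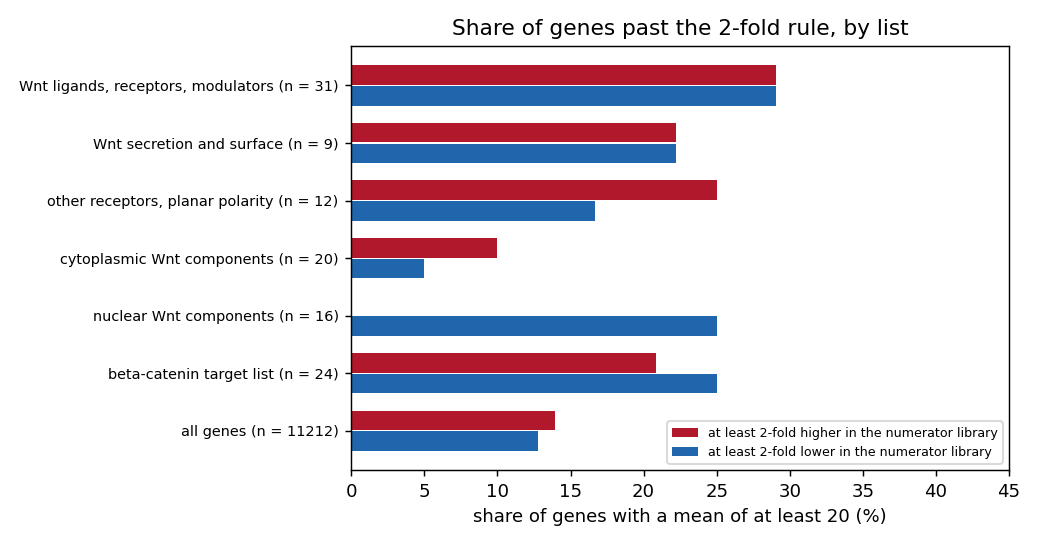
Share (%) of genes past the minimum mean of 20 that were at least 2-fold higher (red) or lower (blue) in the numerator library, for the Wnt ligands, receptors and modulators, 4 lists of other pathway genes, a beta-catenin target list and all genes; n is the number of genes. The Wnt genes stand at 29.0% in both directions and all genes at 13.9% and 12.8%.

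In the authors' deposited table the adjusted p was 0.999 for the Wnt gene with the smallest value and for the gene with the smallest value of all. The shrunken fold changes of the authors' deposited table ranked the Wnt genes differently from the reads. Rspo1 had the largest deposited log2 fold change, 3.12, followed in size by Sfrp1 at -2.85 and Nkd1 at -2.70. Sfrp2, with 0 reads in the denominator library, had 1.43 and Lgr5 2.35 in the authors' deposited table, where shrinkage was stronger at low counts. The sign was the same in the authors' deposited table and in the reads for all 31 genes that passed the minimum, but this is no separate check. For the 14 genes with several possible read pairs, the deposited fold change helped to choose the pair. For the others, it is a shrunken value of the same reads.

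The median ratio over all genes differed between chromosomes. By RefSeq's GRCr8 names, genes of chromosome 7 had a median log2 ratio of -0.57 and genes of chromosome 4 of -0.38, while the medians of the other chromosomes with a value lay between -0.06 and 0.26. Wnt10b, Wif1 and Wisp1, all lower, and Fzd6 and Lgr5, both higher, lie on chromosome 7. All 5 were past 2-fold, on both sides of that chromosome's median. Wnt5b, Lrp6 and Fzd1 lie on chromosome 4, and none of the 3 passed 2-fold. Without both chromosomes 7 Wnt genes were higher and 6 lower, of 23. The part of chromosomal position in these ratios was not tested.

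Cell type markers were read as a check of the label. Over all genes that passed the minimum, 13.9% were higher and 12.8% lower. All 8 smooth muscle markers were read, with sums of 1443094 reads in the numerator library, against 819025 in the denominator library; 1 (Tagln, a smooth muscle actin-binding protein, 2.57-fold) was higher and 0 lower. Mesenchymal progenitor markers had 2 higher and 3 lower of 7 and sums of 664784 and 548902 reads. Itgb1 alone, within the limit, had 497081 and 289329 of these, so this sum mostly follows 1 gene. Uterine stroma markers had 2 higher and 4 lower of 6 and sums of 22050 and 44390. Pericyte markers had 5 of 6 lower and sums of 82118 reads in the numerator library, against 391525 in the denominator library, and endothelial markers 4 of 5 lower and 1 higher and sums of 673 and 8112, with Kdr listed at 0. The endothelial cadherin gene Cdh5 had 2 reads in the numerator library, against 2166 in the denominator library, while Tek, an endothelial receptor kinase, went the other way with 553 and 67 reads. Of the pericyte sum, the channel subunit gene Abcc9 alone had 38 and 168646 reads. The pericyte marker Cspg4 stayed within the limit with 31833 and 28088 reads, and Rgs5 had 22 and 0 reads, under the minimum. Mesothelial markers had 1 of 2 lower and sums of 1759 and 6854. Macrophage markers had 2 of 4 lower and 1 higher and sums of 1669 and 2375, with Ptprc and Aif1 listed at 0. Most of these reads, 1371 and 1979, were on Cd14. Epithelial markers had 2 of 5 higher and 1 lower and sums of 3126 and 1612, with Cdh1 listed at 0. Most of these reads, 2473 and 1431, were on Krt8. The part of cell makeup in the Wnt gene ratios was not tested, and fewer cells of a type cannot be told apart from less RNA per cell.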

How the data were processed

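RNA was isolated with an RNeasy kit, treated with DNase I, made into PCR-enriched libraries and sequenced as short single reads on a HiSeq instrument, per the labels' protocols. The organism label gives rat, while the series' design text calls the cells murine. The authors' deposited table lists 17327 genes, 4106 of them at 0. The submitters' processing notes name DESeq2, featureCounts, TopHat, SAMtools and FastQC and the builds rn4 and rn5. Versions, settings and strand use were not given in the sources used here, so reads of overlapping or antisense genes cannot be told apart. Per the file headers, the mean is a signal, read counts divided by DESeq2 size factors and averaged over both libraries. Fold changes and standard errors were deposited as log2 values, the deposited statistic is a score, and the p-values are the authors' own.

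Each mean is a sum of whole reads of both libraries over their size factors (numerator library 1.01, denominator library 0.991). For 9307 of 13221 genes above 0 only 1 pair of whole numbers met the mean. Another 3679 genes took the pair that gave back the deposited standard error under a shrunken negative binomial fit, and 235 genes with a deposited fold change under 0.05 in size took the pair with the nearest ratio. Of the 31 Wnt genes with a mean of at least 20, 14 had several pairs. For those settled by the standard error, pairs with a ratio of opposite sign to the deposited fold change, or smaller than it, were dropped first. The pair taken missed the standard error by at most 5.66e-07. For Lgr4, Rspo1, Sfrp1, Sfrp4 and Wisp2 no other pair was left to compare. For the rest, the next pair missed it by at least 0.208. For Ctnnb1, settled by the ratio, the next pairs had log2 ratios of -0.58 and 0.51. Tested on simulated data at these levels, both read counts came back for 10977 of 10977 genes, with fold changes made with the same fit. Genes with several pairs and a deposited fold change under 0.05 in size, Ctnnb1 among them, were left out of this test. 

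Log2 ratios use a pseudocount of 1 and folds none. Intervals are exact Clopper-Pearson intervals of the share of reads. Reads carry no molecular identifiers, so they are not independent molecules. All Wnt genes with a mean of at least 20 are named with reads, the others with reads or as listed at 0; of the other pathway genes and the target list, up to 10 past the rule in each direction are named. A few genes within it, and the cell type markers named with reads, were chosen after their values were seen. The planned printing of proteins was not done. Members and lists were chosen with earlier results of these data known. Python 3.11.15, scipy 1.17.1 and pandas 2.3.3 were used.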

Additional observations from a re-analysis of the deposited data

How the results depend on the processing

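No paired analysis was possible because each group is 1 library. Scaling by total reads moved ratios by 0.0014 (log2), less at low counts because of the pseudocount, and with it and with pseudocounts of 0.5 or 5 the counts of 9 Wnt genes higher and 9 lower stayed. Other settings with the same counts within 1.5 times gave 7 to 13 higher and 6 to 13 lower. With only genes with 1 possible read pair, 5 Wnt genes were higher and 4 lower, of 17, since fewer genes are tested; other pathway genes had 4 higher and 5 lower, and the median of all genes was -0.050. At 4-fold, 4 Wnt genes were lower, other pathway genes had 1 lower, and all genes 845 higher and 582 lower. At 1.5-fold, other pathway genes had 12 higher and 15 lower, and all genes 2534 higher and 2556 lower. Other pathway genes had 4 higher with a minimum mean of 100 and 4 by the authors' deposited fold change, whose shrinkage lowers ratios. The median of all genes was 0.038 with no minimum and 0.065 without chromosomes 4 and 7. No Wnt gene past 2-fold changed sign under any of the 4 settings run per gene, but none of these could turn such a sign. The scaling shift is too small, and an equal pseudocount in both libraries keeps the sign. The deposited fold change comes from the same reads and helped to choose the read pairs. By the authors' deposited fold change, 22 of 31 Wnt genes left their counting interval. Depth limits the genes read under 20 times on average, and Lgr5 and Sfrp2, whose ratios rest on 2 and 0 reads in the denominator library.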

Other observations

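A list of genes often read as beta-catenin targets in other tissues had no common direction. Of 24 with a mean of at least 20, 5 were higher and 6 lower in the numerator library, with a median log2 ratio of 0.00. Together 45.8% of these 24 genes lay past 2-fold, against 26.7% of all genes that passed the same minimum. A spread wider than that of all genes was thus not particular to the Wnt genes. Ccnd1, the G1 cyclin D1, had 65285 reads in the numerator library, against 24352 in the denominator library (2.63-fold higher, interval 2.59 to 2.67). Met, the receptor of hepatocyte growth factor, had 10662 and 731 reads (14.3-fold higher), and Edn1, encoding the vasoconstrictor endothelin-1, 6202 and 818 (7.45-fold higher). The growth factor genes Fgf18 (118 and 0 reads, at least 38.6-fold) and Fgf9 (38 and 3 reads, 12.4-fold) were also higher. Lower were the Notch ligand gene Jag1 with 1054 and 12690 reads (12.3-fold), the homeobox gene Cdx2 (9.47-fold), the survivin gene Birc5 (3.56-fold), the connexin 43 gene Gja1 (2.98-fold), Fosl1 (2.18-fold) and Twist1 (2.12-fold). Myc, with 4636 and 2846 reads, was 1.60-fold higher and within the limit. Sp5 and Tnfrsf19 were listed at 0. Such targets differ between tissues, so these counts describe the list and not the activity of the pathway.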
